A study of Homo sapiens with 18 samples.

Results

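The 9 genes described here are the 3 peroxisome proliferator-activated receptors, PPARA, PPARD and PPARG, and 6 genes of lipid use that these receptors are known to control, CPT1A, ACADVL, HADHA, PDK4, ANGPTL4 and PLIN2. They were chosen by name, as the rows of the deposited count table whose Ensembl identifier carries one of these symbols, and all 9 were found among 58302 genes. RNA-seq was performed in the human glioblastoma line U87MG, which is long established, as 2 libraries of control cells and 2 libraries of cells treated with Erastin at 10 μM for 72 h. Erastin was given as a blocker of system Xc-, through which cells take up cystine. Both groups were grown in DMEM with fetal bovine serum and antibiotics, the controls are labelled by growth under usual conditions with no vehicle named, and both come from 1 cell line. The study names PPARα as a possible route between the MDM2 and MDMX proteins and ferroptosis, which is the question that the receptor and its targets bear on.

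PPARs are nuclear receptors that are switched on by fatty acids and their derivatives. They bind DNA together with a retinoid X receptor (RXR), at repeats of a short motif, and recruit coactivators such as PGC-1α. PPARα is best known from liver, heart and muscle, where it turns on genes of fatty acid oxidation in fasting, PPARδ does so in many tissues, and PPARγ is the main regulator of fat cell formation and lipid storage. Their shared targets carry fatty acids into mitochondria (CPT1A), oxidize them (ACADVL, HADHA), hold back the use of pyruvate (PDK4), coat lipid droplets (PLIN2) and restrain lipoprotein lipase outside the cell (ANGPTL4).

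In Erastin-treated cells, PDK4 and PPARG were the members with the largest falls, to 10.0% and 37.4% of the control level. CPT1A fell to 84.5% of control, PPARA rose to 120% of control, and PPARD, ACADVL, HADHA, ANGPTL4 and PLIN2 did not pass the test. A gene is said to have risen or fallen where its adjusted p was under 0.05 in edgeR's quasi-likelihood test, adjusted by the Benjamini-Hochberg method over the 16751 genes with enough counts to be tested. All 9 members were tested. Of them 1 rose and 3 fell, beside 23.2% of all genes tested that rose and 23.7% that fell. At the thresholds of the study (adjusted p under 0.05 and a change of 1 or more, up or down, on the log2 scale), 0 members were called up and 2 were called down, beside 6.24% and 9.34% of all genes. The 2 groups of libraries did not overlap for 6 members, 3 with both Erastin libraries higher (36.7% of all genes) and 3 with both lower (36.9%). The median log2 fold change of the members was 0.06, against -0.0026 over all genes tested.

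**Figure D1:**
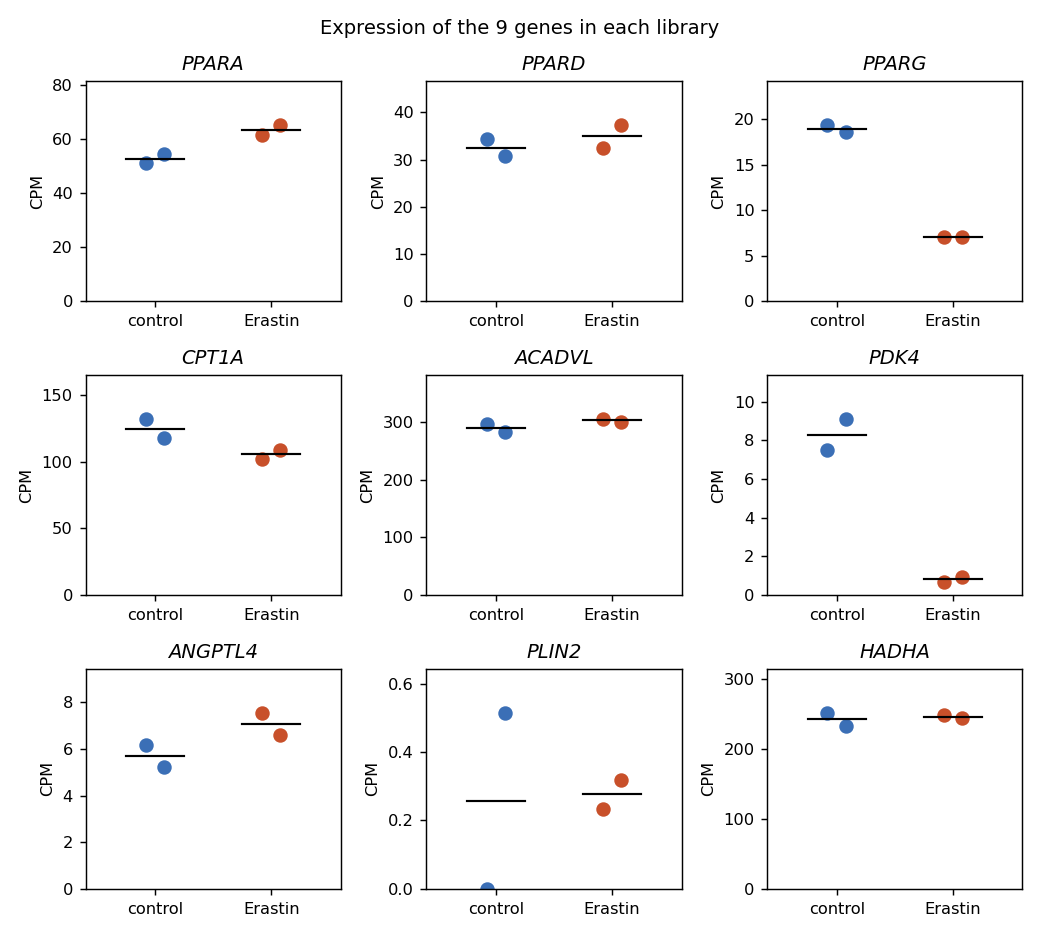
Expression of each of the 9 genes in CPM (counts scaled to library size, y axis, each panel from 0) in the 2 control (blue) and 2 Erastin (red) libraries, with the mean as a line. The Erastin points of PDK4 (0.702 and 0.955 CPM) and PPARG (7.09 and 7.07 CPM) lie far under the control points, whereas those of HADHA and PPARD overlap the controls.

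Counts on genes totalled between 29412656 and 31513519 per library, and the TMM factors that scale them lay between 0.9711 and 1.0179. Replicates varied by 10.3% (edgeR's common biological coefficient of variation). The series' design calls the replicates biological but does not say that they came from separate cultures, so p-values measure the spread between these libraries. The smallest two-sided p that exact permutation of 2 against 2 libraries allows is 0.333. In bulk RNA, fewer cells of a type and less RNA per cell cannot be told apart. The counting did not use strand, and reads assigned to several genes or places were left out.

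Because PPARA gives the group its name and PPARG and PDK4 changed most, the DNA just before their start sites is shown, with each CG pair in capitals. PPARA lies on chr22:46150521-46243756 of GRCh38 (plus strand), PPARG on chr3:12287368-12434356 (plus strand) and PDK4 on chr7:95583499-95596491 (minus strand). The stretches are the 250 bases before a RefSeq start (build GRCh38.p14), written along the gene's strand. They stand at chr22:46150276-46150525 for PPARA, chr3:12287118-12287367 for PPARG and chr7:95596517-95596766 for PDK4.
PPARA: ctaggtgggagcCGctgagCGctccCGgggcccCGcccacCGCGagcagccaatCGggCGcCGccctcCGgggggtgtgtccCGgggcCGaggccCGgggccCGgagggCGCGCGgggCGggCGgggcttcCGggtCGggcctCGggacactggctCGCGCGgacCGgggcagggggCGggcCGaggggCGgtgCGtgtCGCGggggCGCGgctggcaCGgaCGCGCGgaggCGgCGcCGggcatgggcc
PPARG: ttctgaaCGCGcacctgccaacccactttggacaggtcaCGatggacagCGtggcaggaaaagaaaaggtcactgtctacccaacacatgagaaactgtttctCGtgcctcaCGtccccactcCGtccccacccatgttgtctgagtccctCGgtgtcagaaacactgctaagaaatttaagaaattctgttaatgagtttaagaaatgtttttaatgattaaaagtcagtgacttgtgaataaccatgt
PDK4: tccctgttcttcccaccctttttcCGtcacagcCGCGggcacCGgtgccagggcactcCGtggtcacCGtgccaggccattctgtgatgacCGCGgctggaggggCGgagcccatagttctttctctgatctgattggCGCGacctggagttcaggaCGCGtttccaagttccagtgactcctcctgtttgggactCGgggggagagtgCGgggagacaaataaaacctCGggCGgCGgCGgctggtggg
The PPARA stretch held 41 CG pairs and 84.4% G and C, the PPARG stretch 8 CG pairs and 44.8%, and the PDK4 stretch 19 CG pairs and 62.8%. Over all 35116 RefSeq windows the median was 11 CG pairs and 58% G and C, with quartiles of 3 and 23 CG pairs. The quartiles of G and C were 46.4% and 68%. PPARA therefore lay above the upper quartile in both measures, whereas PPARG lay between the lower quartile and the median in CG pairs and below the lower quartile in G and C. PPARG has 6 RefSeq starts and only its first is shown. PPARA also has another RefSeq start that is not shown, whose stretch at chr22:46150538-46150787 held 45 CG pairs and 87.2% G and C. The PPARA stretch overlaps the annotated exon by 5 bases, the PPARG stretch meets no annotated gene, and the PDK4 stretch overlaps by 97 bases a first exon of PDK4-AS1, a long noncoding RNA on the opposite strand. PDK4-AS1 had 2 and 2 counts in control cells and 0 and 4 after Erastin, and it shared no exon bases with PDK4 in the counting annotation.

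PPAR and RXR bind a direct repeat of the motif AGGTCA, that is AGGTCA, any 1 base, and AGGTCA again. It was searched on both strands in the 16 RefSeq promoter windows of the 9 members, each with 250 bases before and 50 after a start. None of the 16 windows held the repeat, exact or with 1 of its letters changed, beside 0.0228% and 0.336% of all 35116 windows. The motif AGGTCA alone was in 3 of the 16 windows (18.8%, against 13.8% of all windows), and all 3 belonged to PPARG. Of these 3 windows, 2 overlap and hold the same site, which is counted in each. In the PPARG stretch printed above it began 217 and 184 bases before the start. Within 5000 bases on either side of a start, a search added after the data were seen, 0 of 9 members had the exact repeat, against 0.623% of genes. With 1 letter changed, 2 of 9 had it (22.2%, against 9.75% of genes). Both matches are printed, with the repeat in capitals and 20 bases on each side, on the plus strand of the genome. Any link between a match and the direction of change was not tested.
CPT1A: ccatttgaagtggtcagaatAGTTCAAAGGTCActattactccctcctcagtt
PDK4: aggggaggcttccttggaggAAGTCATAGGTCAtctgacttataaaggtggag
The CPT1A match, in chr11:68847740-68847792, lies 3495 bases before the RefSeq start, outside any annotated gene. The PDK4 match, in chr7:95601209-95601261, lies 4725 bases before the start, in an intron of PDK4-AS1. These are matches of letters, and no binding was measured here.

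Of the receptors, PPARA (ENSG00000186951) had 1563 and 1687 counts in control cells and 1837 and 2044 counts after Erastin. Scaled by TMM, these were 51.1 and 54.3 CPM against 61.4 and 65.1 CPM. Both Erastin libraries were above both controls, with means of 52.7 ± 2.26 and 63.2 ± 2.57 CPM (SD, n = 2 each). On the log2 scale the difference was 0.26 (standard error 0.0803, 95% interval 0.09 to 0.44, adjusted p = 0.0182 by edgeR). The rise was small and depended on single libraries. Leaving out control replicate 1 gave an adjusted p of 0.0614 and leaving out Erastin replicate 2 gave 0.133, with log2 fold changes between 0.22 and 0.30 over the 4 omissions.

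PPARG (ENSG00000132170) had 591 and 576 counts in control cells and 212 and 222 counts after Erastin. The 2 groups were far apart and each was tight, at 18.9 ± 0.556 against 7.08 ± 0.0158 CPM (SD, n = 2 each). The change of -1.42 on the log2 scale (standard error 0.138, 95% interval -1.72 to -1.12, adjusted p = 5.667e-06 by edgeR) lay between -1.46 and -1.37 under all 11 alternatives. PPARD (ENSG00000112033), on chr6:35342558-35428191, had 1054 and 953 counts in control cells and 974 and 1173 counts after Erastin. Its libraries overlapped, and the log2 fold change of 0.10 (95% interval -0.14 to 0.34) had an adjusted p of 0.479 by edgeR.

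Levels can be set against each other between genes only per length, so CPM were divided by the kilobases of all annotated exons of each gene. On that scale PPARD was the most abundant receptor in every library, with 7.73 and 6.88 CPM per kilobase in control cells and 7.31 and 8.38 after Erastin. PPARG stood next in control cells, at 4.78 and 4.58, above PPARA at 3.87 and 4.11. After Erastin the order of these 2 turned around, with PPARA at 4.65 and 4.92 and PPARG at 1.75 and 1.75. This order rests on the annotated exon lengths, 13219 bases for PPARA, 4457 for PPARD and 4046 for PPARG. The transcripts made in these cells may be shorter. Before division by length, PPARA stood first in both groups, with means of 52.7 CPM in control cells and 63.2 after Erastin. PPARD followed at 32.6 and 34.9 CPM and PPARG at 18.9 and 7.08 CPM. Per kilobase, the receptors did not overlap one another within either group. As a share of the summed level of the 3 receptors, PPARG went from 29.3% to 12.2% and PPARD from 45.7% to 54.5% (means of 2 libraries). PPARA made up 23.6% and 26.4% in control cells and 33.9% and 32.7% after Erastin. The sum of the 3 was 16.0 ± 0.569 CPM per kilobase in control cells and 14.4 ± 0.947 after Erastin (SD, n = 2 each).

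**Figure D2:**
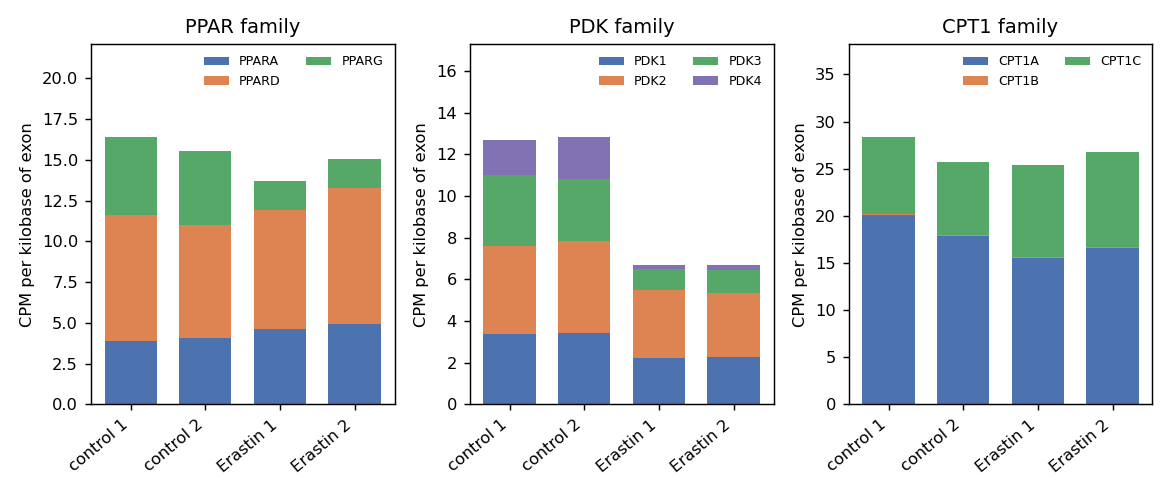
Level per length (CPM per kilobase of exon, y axis from 0) of the PPAR, PDK and CPT1 genes, stacked for each of the 4 libraries. The PPARG band shrinks from 29.3% to 12.2% of its family and the PDK4 band from 14.4% to 2.74%, and the summed PDK level drops from 12.7 and 12.8 to 6.67 and 6.68.

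Among the partners and coregulators of the receptors, 14 of 16 genes had enough counts to be tested, of which 7 rose, 5 fell and 2 did not pass (median 0.21 on the log2 scale). The counts of this list and of each list below stand beside 23.2% of all genes tested that rose and 23.7% that fell. PPARGC1A, which encodes the coactivator PGC-1α, was the gene of this list past the thresholds of the study. It had 303 and 345 counts in control cells and 94 and 135 after Erastin, and the groups did not overlap. The level fell to 35.5% of control (adjusted p = 9.662e-05). The genes named next in this paragraph were chosen after their values were seen, apart from NCOR1. PPARGC1B, the related PGC-1β, fell by 0.95 on the log2 scale (adjusted p = 0.000522). RXRA, the main RXR partner, went from 1034 and 809 counts to 698 and 697 and fell by 0.40 on the log2 scale (adjusted p = 0.0274, but 0.284 without control replicate 1, 0.0659 without Erastin replicate 1 and 0.104 without Erastin replicate 2). The acetyltransferases CREBBP and EP300, which are general coactivators, rose by 0.87 (adjusted p = 3.302e-06) and 0.78 (adjusted p = 3.047e-06). The corepressor NCOR1 rose by 0.24 (adjusted p = 0.0177, but 0.235 without Erastin replicate 2). RXRG had 0 counts in each library. RXRB had 2 to 4 counts per library, but all of its 31-base words (100%) also occur on alternate scaffolds of the genome, so its level cannot be read where reads with several places are left out.

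CPT1A (ENSG00000110090), on the minus strand of chr11:68754620-68844410, encodes the carnitine palmitoyltransferase of the outer mitochondrial membrane that sets the rate of fatty acid entry. It had 4038 and 3653 counts in control cells and 3050 and 3426 after Erastin, so both treated libraries were below both controls. The mean went from 125 ± 10.2 to 106 ± 5.00 CPM (SD, n = 2 each). Its log2 fold change was -0.24 (standard error 0.0776, 95% interval -0.41 to -0.07, adjusted p = 0.0228 by edgeR). It missed the threshold when the libraries were scaled by their totals (-0.19, adjusted p = 0.0509), without control replicate 1 (adjusted p = 0.111) and without Erastin replicate 1 (adjusted p = 0.179).

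CPT1C, a form found mostly in neurons, had 1460 and 1412 counts in control cells and 1704 and 1853 after Erastin, and rose by 0.32 on the log2 scale (adjusted p = 0.00714, but 0.0563 without Erastin replicate 2). CPT1B, the muscle form, had 7 to 17 counts per library and was not tested. Of its exon bases 66.4% are shared with CHKB-CPT1B, where reads were not counted, so its level is a lower limit. Per length, CPT1A was 70.3% of the 3 CPT1 genes in control cells and 61.7% after Erastin, and CPT1C was 29.4% and 38.0%. The summed level of the family overlapped between the groups, at 28.3 and 25.7 CPM per kilobase against 25.4 and 26.7. In the list of the carnitine shuttle and its control by malonyl-CoA, 10 of 11 genes were tested, of which 3 rose, 3 fell and 4 did not pass (median -0.07). CRAT, which makes short acylcarnitines, went from 3776 and 3478 counts to 1902 and 2002, a fall of 0.89 on the log2 scale (adjusted p = 1.817e-06). SLC25A20, the carrier of acylcarnitines across the inner membrane, rose by 0.71 (adjusted p = 0.000462), and ACACB, which makes the malonyl-CoA that inhibits CPT1, fell by 0.82 (adjusted p = 0.000126). These 2 genes were chosen after their values were seen. The related ACACA had 281 and 212 counts in control cells and 285 and 662 after Erastin. It passed the test (log2 fold change 0.94, adjusted p = 0.0208), but not with DESeq2 (adjusted p = 0.222) or without Erastin replicate 2 (0.25, adjusted p = 0.444), and 99.4% of its words recur on alternate scaffolds.

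ACADVL (ENSG00000072778), on chr17:7217125-7225273, encodes the dehydrogenase that opens the β-oxidation of long-chain fatty acids. It had 9102 and 8808 counts in control cells and 9148 and 9464 after Erastin. Scaled, these were 298 and 284 CPM against 306 and 301 CPM, which did not overlap, but the log2 fold change of 0.06 (95% interval -0.08 to 0.20) had an adjusted p of 0.456 by edgeR. Of its exon bases 1.01% are shared with DLG4.

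HADHA (ENSG00000084754), on the minus strand of chr2:26190635-26244726, encodes the α subunit of the trifunctional protein, which carries out the later steps on long chains. It had 7690 and 7217 counts in control cells and 7433 and 7644 after Erastin, with overlapping libraries. The log2 fold change was 0.02 (95% interval -0.12 to 0.17, adjusted p = 0.805 by edgeR). For both enzymes the interval leaves out a change of 1 on the log2 scale in either direction. Of the 31-base words of HADHA, 20.1% recur elsewhere on the main chromosomes. HADHB, the β subunit of the same protein, had 3102 and 3064 counts in control cells and 3956 and 3601 after Erastin. It rose by 0.30 on the log2 scale (adjusted p = 0.00823, but 0.149 without Erastin replicate 1) and was chosen after its values were seen.

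HADHA and ACADVL were also the most abundant members per length in both groups, at 63.5 ± 3.56 and 59.7 ± 2.05 CPM per kilobase in control cells (SD, n = 2 each) and 64.5 ± 0.969 and 62.4 ± 0.674 after Erastin. Their control libraries overlapped. CPT1A followed at 19.0 in control cells and 16.1 after Erastin, then the receptors, with ANGPTL4 at 2.30 and 2.85, PDK4 at 1.84 and 0.183 and PLIN2 at 0.0506 and 0.0543 CPM per kilobase. Apart from HADHA and ACADVL in control cells, neighbours in this order did not overlap in their libraries. ANGPTL4 and PDK4 stood below all 3 receptors in control cells, whereas after Erastin ANGPTL4 stood above PPARG.

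Of the mitochondrial β-oxidation list, 18 of 20 genes were tested, of which 1 rose, 3 fell and 14 did not pass, and the median on the log2 scale was -0.03. The largest fall was that of HADH, the dehydrogenase of short chains, from 1485 and 1398 counts to 739 and 699, a log2 fold change of -0.99 (adjusted p = 8.924e-06) that just missed the threshold of 1. ETFB, a subunit of the flavoprotein that takes electrons from the dehydrogenases, fell by 0.38 (adjusted p = 0.019, but 0.0662 without control replicate 1 and 0.168 without Erastin replicate 2). ACADL had 0 counts in each library. Peroxisomal β-oxidation, a classical set of PPARα targets in rodent liver, had 12 of 12 genes tested, of which 3 rose, 1 fell and 8 did not pass (median 0.05). ACOX2, the oxidase for branched chains and bile acid intermediates, went from 217 and 216 counts to 46 and 47, a log2 fold change of -2.21 (adjusted p = 1.428e-05).

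**Figure D3:**
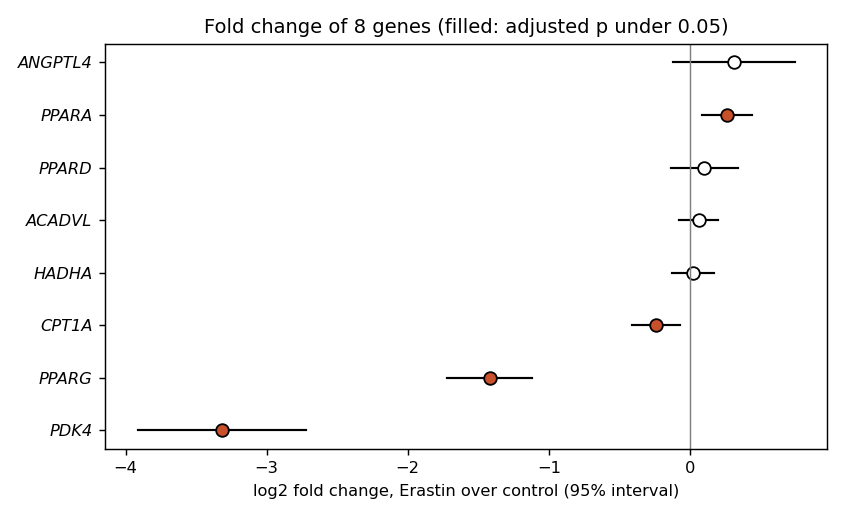
Log2 fold change of Erastin over control (x axis) for 8 members, with 95% intervals from edgeR's quasi-likelihood test as bars and filled points for an adjusted p under 0.05. PLIN2, whose interval runs from -2.32 to 2.51, is left out. PDK4 (-3.32) and PPARG (-1.42) lie apart from the other 6, which stand between -0.24 and 0.31.

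PDK4 (ENSG00000004799) encodes a kinase that switches off pyruvate dehydrogenase and so spares glucose when fatty acids are burnt, and it is among the best known targets of the PPARs. It had 229 and 283 counts in control cells and 21 and 30 counts after Erastin. In CPM these were 7.49 and 9.11 against 0.702 and 0.955, so that the higher treated library was far below the lower control. The means were 8.30 ± 1.15 and 0.828 ± 0.179 CPM (SD, n = 2 each). The log2 fold change was -3.32 (standard error 0.273, 95% interval -3.91 to -2.72, adjusted p = 1.402e-06 by edgeR), and it stayed between -3.56 and -3.12 under all 11 alternatives.

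The other 3 kinases of the family fell too. PDK3 went from 281 and 249 counts to 84 and 94, a log2 fold change of -1.57 (adjusted p = 6.696e-05). PDK1, which is known as a target of hypoxia signalling, fell by 0.59 on the log2 scale (adjusted p = 0.000178) and PDK2 by 0.45 (adjusted p = 0.00615), although 38.6% of the exon bases of PDK2 are shared with SAMD14. The summed level of the 4 kinases per length was 12.7 and 12.8 CPM per kilobase in control cells and 6.67 and 6.68 after Erastin. PDK4 made up 14.4% of it in control cells and 2.74% after Erastin, and PDK2 went from 33.9% to 47.3%. Of the whole list of the pyruvate dehydrogenase complex with its kinases and phosphatases, 12 of 12 genes were tested, and 1 rose, 7 fell and 4 did not pass (median -0.26). The gene that rose was PDP1, a phosphatase that reactivates the complex (0.39, adjusted p = 0.000411). PDHA1, the catalytic α subunit on which the kinases act, fell by 0.37 (adjusted p = 0.00126). PDP1 and PDHA1 were chosen after their values were seen.

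PLIN2 (ENSG00000147872), on the minus strand of chr9:19108375-19149290, encodes the protein that coats lipid droplets in most tissues. It had 0 and 16 counts in control cells and 7 and 10 counts after Erastin, which is 0 to 0.515 CPM where 3 counts in the smallest library are 0.102 CPM. A change could not be shown at this level, since the log2 fold change of 0.10 had a 95% interval of -2.32 to 2.51 and an adjusted p of 0.953 by edgeR. PLIN2 shared no exon bases with another gene, and 9.32% of its words recur on the main chromosomes and 6.79% on alternate scaffolds. Genes on either side of it, looked up after its counts were seen, had many more counts. HAUS6 had 2950 to 3640 counts per library, although 46.9% of its words recur on the main chromosomes, and DENND4C had 1113 to 1553. RRAGA, beyond HAUS6, had 2500 to 3075 counts per library. On the side of DENND4C, RPS6 followed with 8721 to 12743 and ACER2 with 24 to 153, although 45.2% of the words of ACER2 recur on the main chromosomes. Farther along the chromosome, beyond ACER2, MLLT3, FOCAD, MTAP and CDKN2A had 0 counts in each library.

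PLIN3, the perilipin that is found in nearly every cell, made up 99.8% of the level of the 5 perilipins per length in control cells and 99.2% after Erastin. It had 7781 and 6309 counts against 6017 and 6338 and did not pass (log2 fold change -0.18, adjusted p = 0.128). PLIN4 rose from 20 and 10 counts to 106 and 94, or by 2.73 on the log2 scale (adjusted p = 0.000192), and remained at 0.50 CPM per kilobase, far below PLIN3. PLIN1 had 2 to 8 counts per library and PLIN5 had 0. Of the list of lipid droplets and lipolysis, 12 of 17 genes were tested, of which 3 rose, 2 fell and 7 did not pass (median -0.17). G0S2, an inhibitor of the triglyceride lipase ATGL, went from 165 and 241 counts to 66 and 97, a log2 fold change of -1.31 (adjusted p = 0.00169). PNPLA2, which encodes that lipase, rose by 0.48 (adjusted p = 0.000485), and the hormone-sensitive lipase LIPE fell by 0.90 (adjusted p = 0.00491). These lipases were chosen after their values were seen.

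ANGPTL4 (ENSG00000167772), on chr19:8363289-8374373, encodes a secreted inhibitor of lipoprotein lipase. It had 189 and 162 counts in control cells and 226 and 207 counts after Erastin. In CPM these were 6.18 and 5.21 against 7.56 and 6.59, and the groups did not overlap. The log2 fold change of 0.31 (95% interval -0.12 to 0.74) did not pass (adjusted p = 0.221 by edgeR). ANGPTL8 had 8 to 23 counts per library and did not pass (log2 fold change -0.91, adjusted p = 0.262). The enzyme that these proteins inhibit was hardly seen, since LPL had 4 and 2 counts in control cells and 0 and 0 after Erastin. Of 9 genes of lipoprotein lipase and its control, 4 were tested, of which 2 rose and 0 fell (median 0.31). They were LIPG, the endothelial lipase (0.55, adjusted p = 0.0316), and VLDLR, a receptor that takes up lipoprotein remnants (0.31, adjusted p = 0.00557). Without Erastin replicate 2 neither passed (adjusted p = 0.203 and 0.0666), and LIPG did not pass without control replicate 2 (0.0613) or with DESeq2 (0.0917).

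In fatty acid uptake and activation, 12 of 18 genes were tested, of which 2 rose, 3 fell and 7 did not pass (median -0.15). SLC27A1, a fatty acid transporter, went from 1641 and 1315 counts to 784 and 876 and fell by 0.83 on the log2 scale (adjusted p = 0.000129). FABP5, a fatty acid binding protein known to deliver ligands to PPARδ, went from 566 and 542 counts to 333 and 344 and fell by 0.70 (adjusted p = 0.000859). Of the acyl-CoA synthetases, ACSL4, which favours arachidonic acid and is known to promote ferroptosis, fell by 0.46 (adjusted p = 7.716e-05) and ACSL3, which favours oleic acid, rose by 0.38 (adjusted p = 0.00122). ACSL4 made up 76.9% of the 5 synthetases per length in control cells and 67.9% after Erastin, and ACSL3 made up 13.3% and 20.9%. ACSL1, a PPARα target in liver, had 1568 and 1835 counts against 1470 and 1674 and did not pass (-0.11, adjusted p = 0.371). ACSL5 (adjusted p = 0.598) and ACSL6 (adjusted p = 0.453) did not pass either, at 54 counts or fewer per library.

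Ketone body and uncoupling genes held the largest fall of all listed genes. There, 9 of 13 genes were tested, of which 2 rose, 4 fell and 3 did not pass (median 0.06). CREB3L3, a transcription factor that works together with PPARα in fasted liver, went from 128 and 134 counts to 8 and 15, or -3.49 on the log2 scale (adjusted p = 1.367e-05). UCP2, a mitochondrial carrier of the uncoupling family, went from 521 and 533 counts to 140 and 128, a log2 fold change of -1.97 (adjusted p = 1.221e-06). VNN1, a pantetheinase that is a PPARα target in liver, went from 91 and 107 counts to 40 and 43 (-1.24, adjusted p = 0.0058). CYP4A11, a hallmark target of PPARα in liver, had 0 counts in each library, although 54.6% of its words recur on the main chromosomes and reads from there could not be counted.

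**Figure D4:**
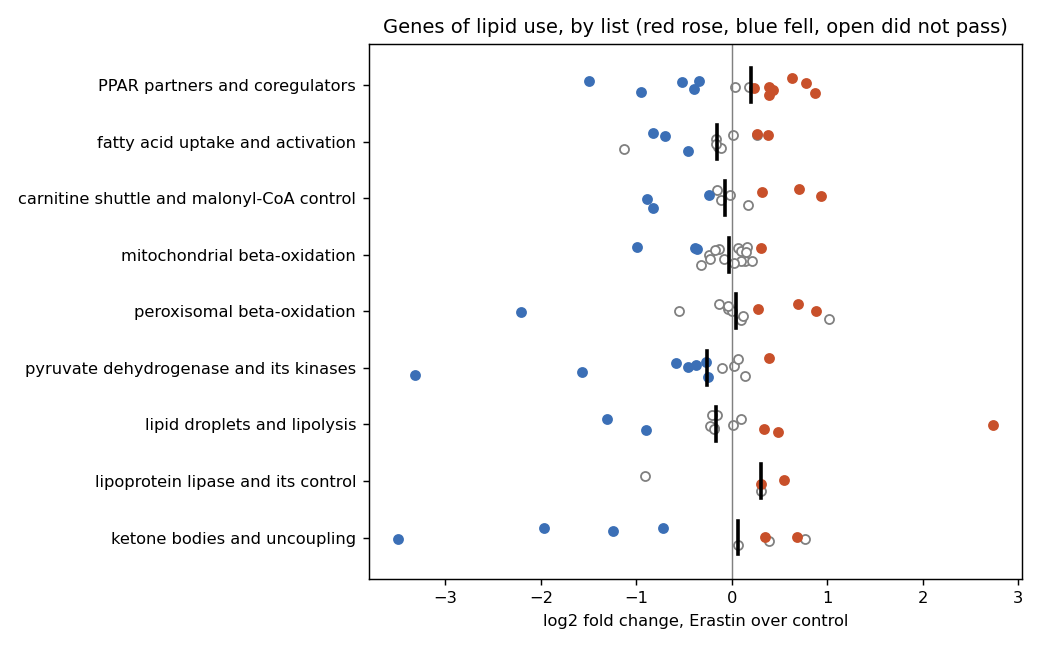
Log2 fold change of Erastin over control (x axis) for each tested gene of the 9 lists (y axis). PPARA, PPARD and PPARG are in none of these lists and are not shown, whereas the other members are included. Red points are genes that rose, blue points genes that fell and open points genes that did not pass, with the list median as a bar. Medians run from -0.26 (pyruvate dehydrogenase and its kinases) to 0.31 (lipoprotein lipase and its control), while single genes run from -3.49 (CREB3L3) to 2.73 (PLIN4).

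Over all 9 lists without the members, 97 of 122 genes were tested, of which 24 rose, 26 fell and 47 did not pass. Of all genes tested, 23.2% rose and 23.7% fell. At the thresholds of the study 1 was called up (PLIN4) and 7 were called down, beside 6.24% and 9.34% of all genes tested. The median was -0.04, against -0.0026 over all genes tested. The 3 tested genes of the lists whose pattern over the 4 libraries was most like that of PPARA, by the Euclidean distance of centred log2 CPM among 105 genes, were VLDLR (0.0508), NCOR1 (0.0567) and CPT1C (0.123).

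Markers of tissues in which these genes are best known had few counts. The summed level of 6 adipocyte markers was between 0.201 and 0.515 CPM per library, with ADIPOQ and LEP at 0 counts, and that of 6 hepatocyte markers between 0.223 and 0.612 CPM, with APOA1 at 0. The words of SERPINA1, one of these, recur to 96.0% on alternate scaffolds, so its level cannot be read. For ADIPOQ, 46.2% of exon bases are shared with ADIPOQ-AS1. Of 6 glial and neural markers, which the glioblastoma label bears on, the sum was 4.06 to 4.85 CPM, with AQP4 at 0. SOX10 was also at 0, but 100% of its exon bases are shared with other genes, where reads were not counted, so its level cannot be read. The 6 fibroblast and mesenchymal markers summed to 9996 and 10415 CPM in control cells and 3462 and 3648 CPM after Erastin. Of the 6, 5 fell, beside 23.7% of all genes tested, and COL3A1 did not pass (log2 fold change -0.19, adjusted p = 0.826 by edgeR). FN1 alone went from a mean of 5192 to 496 CPM. The 5 that fell changed in the same direction as PPARG and PDK4, and their part in those results was not tested.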

How the data were processed

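The authors sequenced RNA from U87MG cells, as 2 control and 2 Erastin (10 μM, 72 h) libraries. Cells were lysed with Trizol. The authors deposited raw read counts per gene, written per the file header by featureCounts 2.0.3 with Ensembl release 90 on GRCh38 (2.0.4, with HISAT2 2.1.0, in the submitters' processing notes). The deposited values hold no estimated counts: 0 of them was not a whole number. Reads of a pair were counted separately.

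Groups came from the labels. Genes were named by Ensembl identifier (57532 of 58302 had a symbol). In edgeR 4.0.16 (R 4.3.3), filterByExpr (minimum count 10) kept 16751 genes, TMM scaled them, and the two-sided quasi-likelihood test was adjusted by Benjamini-Hochberg. CPM used the TMM-scaled library sizes. The members and lists were chosen with earlier results of these data known. Genes named beyond the members were, per list, up to 4 past the study's thresholds with the largest change or, with none, the 2 largest with an adjusted p under 0.05, relatives of members, and the 3 nearest to PPARA. Others, genes at or near 0 counts among them, were chosen after their values were seen. Uniqueness was measured by the 31-base words of all exons of each gene in the counting annotation (Ensembl release 90), read from the genome. Genes at the printed sequences were those of GENCODE release 44. Promoters were those of RefSeq, found for 9 of 9 members. The comparison of PPAR proteins first planned was not run, and ChIP-seq and HiChIP were not analysed here. Some listed genes are counted in the lists but not reported here by name. The script was tested on simulated data. Alternatives were DESeq2 1.42.0, RLE factors, library totals, no filter, at least 10 counts in every library, a replicate block, pairs of reads, and each library left out. Leaving out genes whose words recur elsewhere, and the wider repeat search, were added after the data were seen. PCR reads are not independent molecules, so intervals cover less than the full error.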

Additional observations from a re-analysis of the deposited data

How the results depend on the processing

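Over the 9 members and 11 alternatives, 88 of 96 values kept their direction and their side of the threshold, 5 missed the threshold (2 for PPARA and 3 for CPT1A, given above) and 3 changed sign, none of them past the threshold. The sign changes were those of HADHA without control replicate 2 (-0.0406, range with 1 library left out -0.0406 to 0.0791) and of PLIN2 without control replicate 1 (-0.89) and without Erastin replicate 2 (-0.14, range -0.89 to 0.30). With 1 library left out, the number of members that rose lay between 0 and 1 (0 without control replicate 1 or Erastin replicate 2), and the number that fell between 2 and 3. For PLIN2, 8 alternatives gave a value.

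Of the other listed genes, 992 of 1061 values held, 27 missed the threshold, 17 passed it newly and 25 changed sign. The one that changed sign and passed was SLC27A3, a fatty acid transporter with 32, 48, 68 and 11 counts, at 0.01 over all libraries and -1.88 (adjusted p = 0.0394) without Erastin replicate 1. It lay between -1.88 and 0.809 with 1 library left out and was -0.324 with the replicate block, and all of its words (100%) recur on alternate scaffolds. The others did not pass. With 1 library left out, PPRC1 lay between -0.0131 and 0.0733, FABP3 between -0.345 and 0.0318, SLC22A5 between -0.247 and 0.002, MLYCD between -0.101 and 0.0658, ACAD10 between -0.021 and 0.203, and ECI1 between -0.252 and 0.0909. EHHADH lay between -0.385 and 0.242, ABCD3 between -0.0526 and 0.0491, PEX11A between -0.0936 and 0.0057, PDHX between -0.0594 and 0.0941, and DGAT1 between -0.0531 and 0.0771. Library totals gave 0.0363 for MLYCD, 0.0135 for EHHADH, 0.0488 for ABCD3 and 0.0064 for PEX11A, and ABCD3 was 0.0024 with DESeq2 and 0.0009 with RLE factors.

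The lists without the members held 20 to 27 genes that rose and 23 to 28 that fell over the alternatives, and 22 and 26 without genes whose words recur elsewhere. Same-numbered libraries were not said to share a day or culture, and the correlation of their deviations from the group means was 0.0338. With the replicate block 1 member rose and 3 fell, and no call of a member changed. Over all genes, the block gave 1040 genes up and 1568 down at the thresholds of the study. The main edgeR fit gave 1046 and 1564. DESeq2, which the study used, gave 903 and 1411 here. Scaling by library totals gave 1145 and 1468.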
